A study of Rattus norvegicus with 6 samples.

Results

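Cholesterol synthesis genes and other genes tied to the sterol-regulated transcription factor SREBP2 were examined in control and PWS INS-1 lines, rat insulinoma cells that serve as a model of the pancreatic β-cell. The set was made by name from the sterol synthesis enzymes, the SREBP machinery and genes of sterol uptake, transport and storage, and a gene was kept when its mean normalized count over the 6 lines was at least 5. All 31 named genes were found and kept, out of 32900 rows in the table and 15579 genes that reached that mean, and the mean nearest that limit was 103 normalized counts, for Hsd17b7. Normalized counts are reads per gene divided by a size factor for each library, so that they compare 1 gene between lines and not different genes with each other.

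Total RNA was sequenced from 3 control lines (5-9, 2 and 16) and 3 PWS lines (3, 19-1 and 19-4), with 1 library per line and all lines grown in 7.5 mM glucose. In the control lines a CRISPR/Cas9 deletion of the Prader-Willi syndrome (PWS) imprinted domain lies on the maternal allele only, where the domain is silent, while the PWS lines carry it on both alleles. Every line also carries a human insulin transgene with neomycin resistance and a mouse Ins2 C-peptide mCherry reporter, as part of the parental INS-1(832/13)::mCherry cells. The lines are clonal, lines 2 and 16 and the PWS lines were derived from line 5-9 in a second round of editing, line 3 has an alternate proximal breakpoint, and lines 19-1 and 19-4 are subclones of line 19, so that the 3 PWS lines stand for 2 clones. P-values therefore measure the spread between these lines.

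With a read counted for each gene that it aligned to, the counts per line summed to between 26016478 and 36084261, the fewest in line 19-1 and the most in line 2. With uniquely counted reads only, the totals were 17530149 in line 19-1, 22984228 in line 19-4 and 23022637 in line 2. In the first counting 3 reads, the limit that a count of 0 allows, correspond to 2.73 to 3.59 normalized counts for counting error alone. The genes of the deleted domain followed the labels, with Snurf at 3160 to 3992 normalized counts in control lines against at most 3.64 in PWS lines, and Mkrn3 at 0 in all 3 PWS lines. All 8 β-cell markers were expressed, 7 of them lower on average in PWS lines (50.7% of tested genes). For Ins1 (69.4% of the control mean) and Iapp (66.0%) all PWS lines lay below all control lines (9.01% of tested genes), and for Ins2 (47.0%) the groups overlapped. Of 8 markers of other islet cells and other tissues, Sst and Ptprc had no read in any line, Ppy, Ghrl, Alb and Col1a1 were at 2.85 normalized counts or less, Adipoq was at 4.78 to 16.4, and Gcg, which marks α-cells, was at 0 to 19.0 in control lines and at 15.3, 13.2 and 100 in PWS lines 3, 19-1 and 19-4. Their part in the results on cholesterol genes was not tested. In RNA of whole cultures, less RNA per cell and fewer cells with the RNA cannot be told apart.

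Cholesterol is built in the cytosol and endoplasmic reticulum from acetyl-CoA by way of mevalonate, the isoprenoids and squalene, and the isoprenoid intermediates also feed dolichol, ubiquinone and protein prenylation. When sterols in the endoplasmic reticulum are low, SCAP escorts SREBP2 to the Golgi, where proteases release its transcription factor part, which activates the genes of almost every enzyme of the pathway. When sterols are high, the INSIG proteins retain SCAP in the endoplasmic reticulum, while oxysterols activate LXR, which raises the genes of cholesterol efflux. Insulin secretory granules have cholesterol-rich membranes, and β-cell exocytosis is known to depend on membrane cholesterol.

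SREBP2 acts on promoters together with NF-Y and Sp1, so the promoters of the set were searched on both strands for the short sterol regulatory element CACCCCAC, its longer form with AT in front, the NF-Y box CCAAT, the GC box GGGCGG bound by Sp1, and the E-box CACGTG. The sequences are RefSeq's for assembly GRCr8, from 250 bases before to 50 bases after each gene's start, and 26 of the 31 genes had 1. Shown here, 5′ to 3′ and ending at the last base before the start, are the promoters of the 4 genes that passed the DESeq2 test described further on (Acss2, Idi1, Msmo1 and Cyp51), of Hmgcs1, which had the lowest log2 fold change of the set, and of Ebp, the only matched gene with the short sterol element. Capitals mark motif matches on either strand.
Acss2, chr3:164464453-164464702, plus strand: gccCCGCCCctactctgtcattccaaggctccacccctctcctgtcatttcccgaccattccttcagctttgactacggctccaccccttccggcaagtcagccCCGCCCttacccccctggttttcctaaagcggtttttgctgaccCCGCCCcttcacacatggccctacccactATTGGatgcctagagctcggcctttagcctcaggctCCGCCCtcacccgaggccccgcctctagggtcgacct
Idi1, chr17:66547525-66547774, minus strand: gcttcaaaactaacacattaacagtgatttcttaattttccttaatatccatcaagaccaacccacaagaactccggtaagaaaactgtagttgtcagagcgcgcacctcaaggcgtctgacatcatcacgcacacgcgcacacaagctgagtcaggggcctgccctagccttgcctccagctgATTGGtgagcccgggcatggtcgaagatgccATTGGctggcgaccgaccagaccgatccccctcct
Msmo1, chr16:29746863-29747112, plus strand: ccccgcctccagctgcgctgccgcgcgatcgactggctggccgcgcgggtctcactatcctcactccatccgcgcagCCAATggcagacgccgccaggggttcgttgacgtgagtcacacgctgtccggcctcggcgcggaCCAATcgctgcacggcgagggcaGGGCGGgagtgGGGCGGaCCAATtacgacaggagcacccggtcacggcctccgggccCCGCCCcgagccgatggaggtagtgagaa
Cyp51, chr4:30991443-30991692, plus strand: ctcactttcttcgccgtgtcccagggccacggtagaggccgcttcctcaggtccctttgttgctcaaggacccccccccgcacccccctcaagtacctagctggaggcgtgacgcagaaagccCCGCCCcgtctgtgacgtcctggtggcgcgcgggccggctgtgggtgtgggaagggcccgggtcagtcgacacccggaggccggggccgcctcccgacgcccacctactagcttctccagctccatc
Hmgcs1, chr2:53382054-53382303, plus strand: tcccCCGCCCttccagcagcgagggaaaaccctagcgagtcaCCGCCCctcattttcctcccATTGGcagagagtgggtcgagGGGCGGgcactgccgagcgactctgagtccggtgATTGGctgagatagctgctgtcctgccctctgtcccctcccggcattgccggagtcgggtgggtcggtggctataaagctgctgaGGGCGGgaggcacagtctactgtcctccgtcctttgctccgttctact
Ebp, chrX:16971212-16971461, plus strand: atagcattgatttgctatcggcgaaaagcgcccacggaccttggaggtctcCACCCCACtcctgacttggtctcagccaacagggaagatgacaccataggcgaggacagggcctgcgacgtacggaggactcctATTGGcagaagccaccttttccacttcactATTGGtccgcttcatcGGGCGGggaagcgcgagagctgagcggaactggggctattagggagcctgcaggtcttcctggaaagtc

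The NF-Y box was present in 20 of the 26 promoters (76.9%), against 37.5% of all 33469 promoters and 37.3% of the 11027 promoters of tested genes. At least 2 NF-Y boxes were found in 11 of the 26 (42.3%), against 13.4% of the promoters of tested genes. Msmo1 carries 3 of them, and Idi1, Hmgcs1 and Ebp carry 2 each. The GC box was found in 22 of the 26 (84.6%), against 33.1% of all promoters and 61.4% of those of tested genes. Exact copies of the short and long sterol elements were rarer, with CACCCCAC in Ebp alone (3.85% of the set, against 2.7% of all promoters) and the longer form in 0 of the 26, as in 0 of the 11027 promoters of tested genes and 0.125% of all promoters. Copies with other letters were not searched for, so these counts do not show that a promoter lacks a sterol element. The E-box was found in 4 of the 26 (15.4%, against 6.42% of all promoters and 9.06% of those of tested genes), those of Insig1, Abca1, Sc5d and Scap. Cyp51, whose window holds no NF-Y box, has 1 GC box among the bases shown. Among the 10 matched genes whose groups did not overlap, 8 held an NF-Y box and 6 held at least 2, while of the other 16 matched genes 12 held 1 or more and 5 held at least 2, a split that was not tested. A match describes the sequence only, and these windows say nothing of which factor was bound.

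Across the set, most synthesis enzymes had lower normalized counts in PWS lines, with means between 67.9% (Hmgcs1) and 97.5% (Sc5d) of the control mean for 20 of the 21 enzymes, whereas 5 of the 6 genes of sterol transport, efflux and storage had means between 103% and 109% of it. In all, 24 of the 31 genes were lower on average in PWS lines, against 50.7% of the 15579 tested genes, and 7 were higher, against 49.3%. The median log2 fold change (PWS against control) was -0.18 for the set and -0.0028 over all tested genes. All 3 PWS lines lay below all 3 control lines for 14 of the 31 genes, against 9.01% of tested genes, and all 3 lay above for 0, against 8.43%. No gene of the set reached the threshold of 0.05 for the adjusted p-value with limma, in which 0.25% of tested genes were lower and 0.00642% higher, and none did in edgeR, in which 0.199% were lower. The smallest limma adjusted p-value was 0.258, for Idi1. At an unadjusted p-value under 0.05 in limma, 11 genes were lower (5.35% of tested genes) and 0 were higher (6%). DESeq2 on the recovered reads called 4 genes, all lower in PWS lines (0.783% of tested genes were lower and 0.68% higher), with adjusted p-values of 0.00700 for Idi1, 0.0158 for Msmo1, 0.0253 for Acss2 and 0.0485 for Cyp51.

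**Figure D1:**
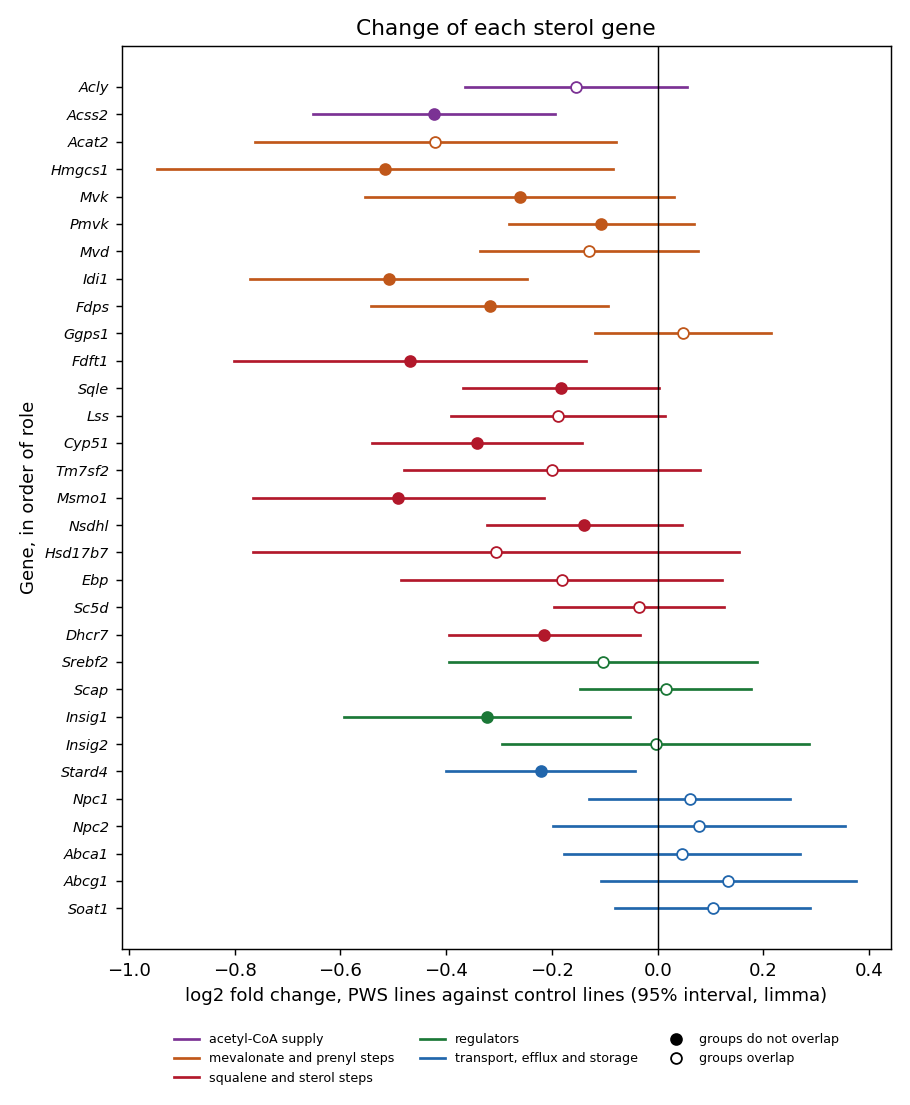
Log2 fold change of PWS against control lines (x axis) for each of the 31 genes, grouped by role, with points for the limma estimate and bars for its 95% interval. The synthesis enzymes lie mostly left of 0, down to -0.52 for Hmgcs1, while the transport, efflux and storage genes other than Stard4 lie between 0.05 and 0.13.

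Which genes passed in DESeq2 depended on the lines in the fit. The calls over all genes moved as well, from 228 with all 6 lines. None of the set was called when control line 5-9 was left out (167 of all genes), when control line 2 was left out (135) or when PWS line 19-1 was left out (84). Without line 19-4 the number was 1, Cyp51 (70 of all genes), and without line 3 it was 3, Idi1, Fdps and Msmo1 (347). Without control line 16 it was 7, with Acat2, Hmgcs1 and Fdft1 added to the 4 (280 of all genes). With the subclones 19-1 and 19-4 summed into 1 sample it was 0 (97 of all genes). Across these fits the DESeq2 log2 fold change ran from -0.50 to -0.31 for Acss2 (-0.43 with all lines), from -0.62 to -0.43 for Idi1 (-0.51), from -0.40 to -0.28 for Cyp51 (-0.34) and from -0.61 to -0.36 for Msmo1 (-0.50). The limma count stayed at 0 with each line left out.

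The set was not evenly placed among the control lines. Line 2 had the highest normalized count of all 6 lines for 23 of the 31 genes, whereas over all tested genes line 2 was the highest of the 6 in 24.5%. Without line 2 the median log2 fold change of the set was -0.11 and that of the 21 synthesis enzymes -0.18, against -0.21 for the enzymes with it. At an unadjusted limma p-value under 0.05, 9 genes were then lower (4.7% of tested genes) and 1, Abcg1, was higher (5.61%). At the other end, PWS line 19-1, the library with the fewest reads, had the lowest count for 16 of the 21 enzymes (76.2%), against 19.2% of all tested genes, and for none of the other 10 genes of the set. Without line 19-1 the number of genes lower at an unadjusted limma p-value under 0.05 was 6 (4.08% of tested genes), with 0 higher (3.84%), and the median of the set was -0.15. The part of depth and of these lines in the result was not tested beyond the values without them.

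**Figure D2:**
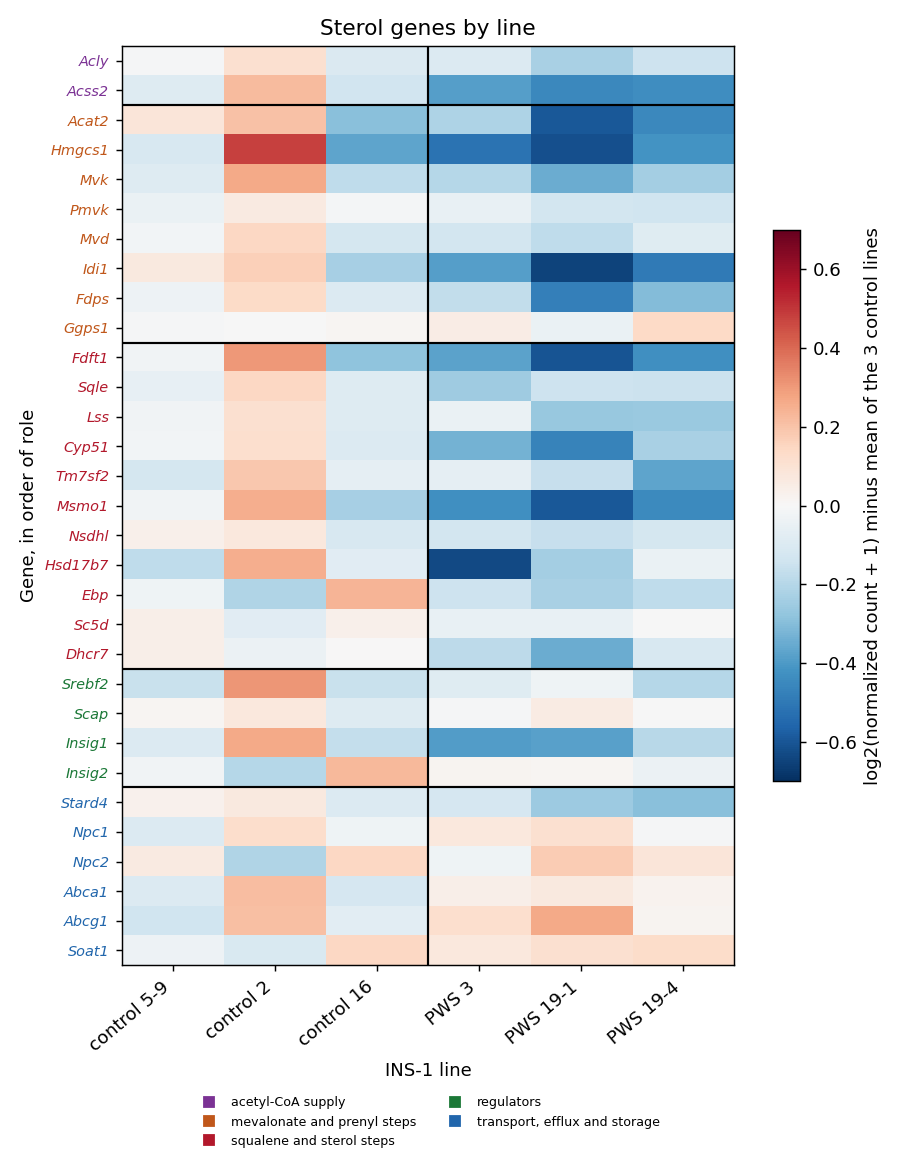
Each gene (row) in each INS-1 line (column), coloured by the log2 difference of its normalized count from the mean of the 3 control lines. Line 2 is above that mean for 24 of the 31 genes, and line 19-1 is below it for all 21 enzymes.

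The pathway starts with acetyl-CoA. Acss2, which makes cytosolic acetyl-CoA from acetate, had 1604, 1987 and 1555 normalized counts in lines 5-9, 2 and 16 of the control group and 1307, 1247 and 1261 in PWS lines 3, 19-1 and 19-4. The groups did not overlap, and the PWS lines differed little among themselves (1272 ± 31.2, SD, n = 3, against 1715 ± 237 in control lines). Its log2 fold change was -0.42 (SE 0.10), with a limma adjusted p-value of 0.265, and in DESeq2 Acss2 (ENSRNOG00000018755) fell with an adjusted p-value of 0.0253. Acly, which cleaves citrate to acetyl-CoA, was at 49237, 53488 and 46219 in control lines and at 46442, 42317 and 44877 in PWS lines. Here line 3 lay just above control line 16, and the log2 fold change of -0.15 (SE 0.09) had an interval of -0.36 to 0.05 and was -0.10 without line 2.

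The first condensations lead to mevalonate. Acat2, the cytosolic thiolase that joins 2 acetyl-CoA, was at 744, 810 and 573 in control lines and at 603, 465 and 513 in PWS lines, and line 3 overlapped with control line 16. Its log2 fold change was -0.42 (SE 0.15), with a limma adjusted p-value of 0.365, and uniquely counted reads made up 64.3% of its total. Hmgcs1, the HMG-CoA synthase of the cytosol, was at 2890, 4364 and 2424 in control lines and at 2189, 2041 and 2342 in PWS lines. The groups did not overlap, but line 2 stood far above the other control lines, so that the control SD (1013) was well over the SD of 150 among PWS lines. For Hmgcs1 the log2 fold change was -0.52 (SE 0.19, limma adjusted p-value 0.375), and -0.28 without line 2.

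Mevalonate is phosphorylated and decarboxylated to the isoprenoid unit. Mvk, the mevalonate kinase, was at 487, 624 and 459 in control lines and at 452, 408 and 439 in PWS lines. The gap between the groups was 459 in line 16 against 452 in line 3, and the log2 fold change of -0.26 (SE 0.13) was -0.13 without line 2. Pmvk, which adds the next phosphate, was at 751, 812 and 768 in control lines and at 750, 710 and 705 in PWS lines, which touch without overlap, and the log2 fold change came to -0.11 (SE 0.08). Mvd, the decarboxylase, overlapped between groups (775 to 934 against 746 to 796), and its log2 fold change was -0.13 (SE 0.09), or -0.058 without line 2, with 56.5% of the reads counted uniquely.

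Idi1, the isomerase that makes dimethylallyl diphosphate, had the smallest p-values of the set in limma and DESeq2. It had 4601, 4927 and 3729 normalized counts in the control lines, against 3358, 2803 and 3118 in the PWS lines. Each PWS line lay below each control line. The mean normalized count was 4419 ± 619 in control lines and 3093 ± 278 in PWS lines (SD, n = 3 in each group), or 70.0% of control. The adjusted p-value was 0.00700 in DESeq2 and 0.258 in limma. The limma log2 fold change of Idi1 (ENSRNOG00000016690) was -0.51 (SE 0.11, 95% interval -0.77 to -0.25), and between -0.63 and -0.43 with any 1 line left out. Fdps, the farnesyl diphosphate synthase, was at 7717, 8708 and 7402 in control lines and at 7039, 5685 and 6426 in PWS lines, without overlap, and its log2 fold change was -0.32 (SE 0.10, limma adjusted p-value 0.322). Ggps1 uses farnesyl diphosphate for geranylgeranyl diphosphate, outside the route to sterols, and was the 1 synthesis enzyme among the 21 that was higher on average in PWS lines. Its counts were 1331, 1335 and 1350 in control lines and 1387, 1294 and 1475 in PWS lines, which overlapped, and its log2 fold change was 0.05 (95% interval -0.12 to 0.21), or 0.0015 without line 19-4 and 0.096 without line 19-1.

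**Figure D3:**
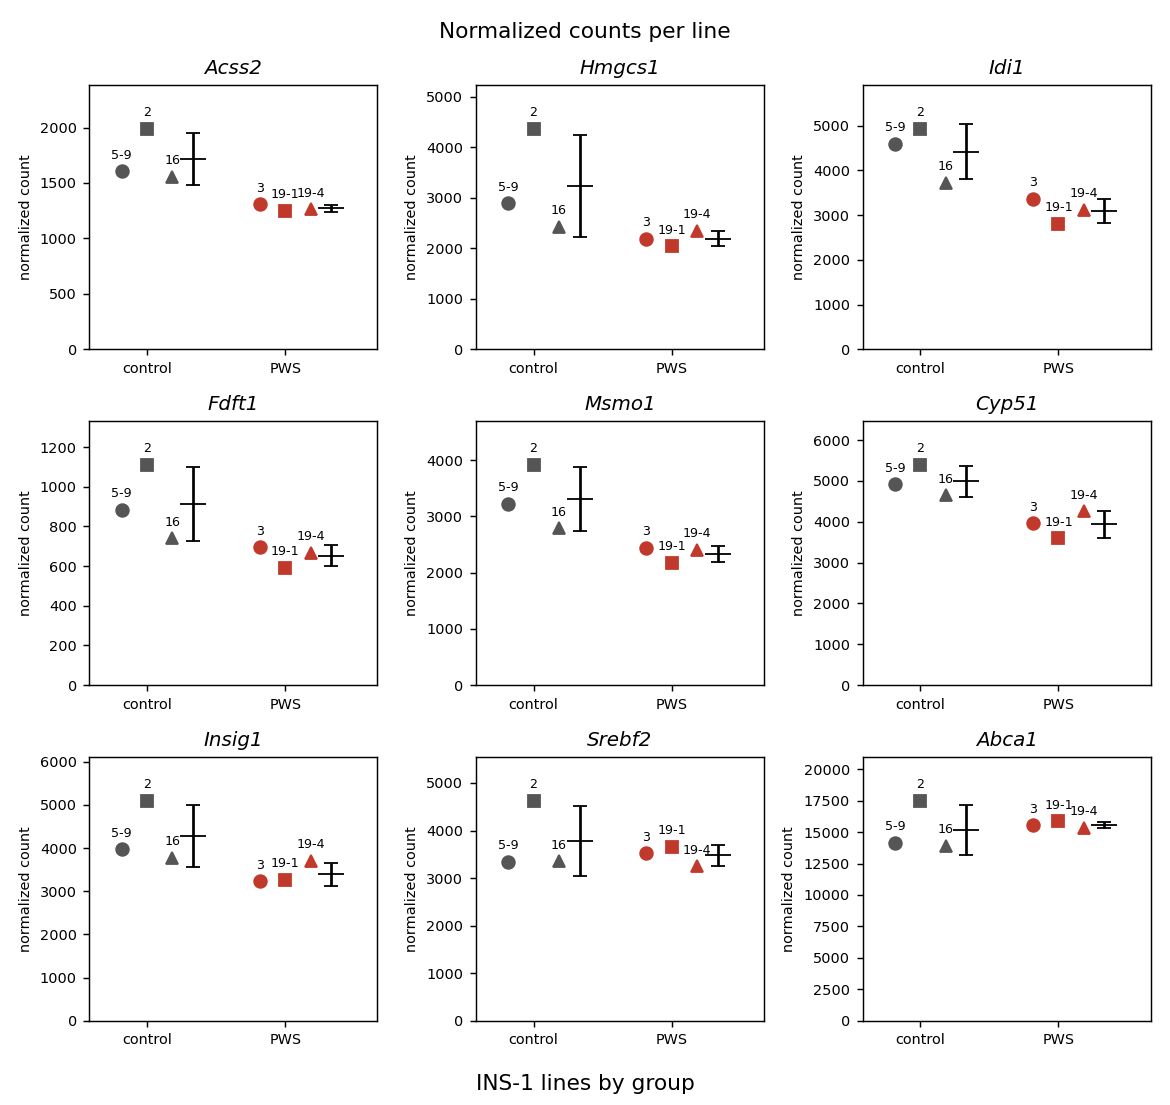
Normalized counts (y axis, from 0) of 9 genes in the control lines (grey) and PWS lines (red), with a bar for the mean and SD of each group of 3. For Acss2, Hmgcs1, Idi1, Fdft1, Msmo1, Cyp51 and Insig1 all PWS points lie below all control points, for Abca1 they lie among them, and for Srebf2 line 19-4 lies below the control points and the other two among them.

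The 11 genes from squalene to cholesterol were all lower on average in PWS lines (median log2 fold change -0.20), and 6 of them did not overlap between groups (9.01% of tested genes). Fdft1, the squalene synthase that commits the isoprenoids to sterols, was at 885, 1111 and 740 in control lines and at 694, 592 and 666 in PWS lines. Its groups did not overlap, and the log2 fold change was -0.47 (SE 0.15, limma adjusted p-value 0.325). Sqle, which epoxidizes squalene, was at 3086, 3558 and 3021 in control lines and at 2699, 2903 and 2894 in PWS lines, also without overlap but with a smaller log2 fold change of -0.18 (SE 0.08), which was -0.11 without line 2. Lss, which closes the sterol rings, ran from 1812 to 2089 in control lines and from 1608 to 1869 in PWS lines.

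The demethylation of lanosterol was where 2 further DESeq2 calls fell. Cyp51, the lanosterol 14-demethylase, was at 4916, 5396 and 4653 in control lines and at 3965, 3596 and 4254 in PWS lines. The groups did not overlap, and the mean normalized count of Cyp51 in PWS lines was 78.9% of control. Its adjusted p-value was 0.0485 in DESeq2 and 0.277 in limma. In limma the log2 fold change was -0.34 (SE 0.09, 95% interval -0.54 to -0.14). Msmo1, the C4-methylsterol oxidase, was at 3226, 3919 and 2791 in control lines and at 2437, 2172 and 2404 in PWS lines. Again every PWS line lay below every control line, and the mean normalized count of Msmo1 in PWS lines was 70.6% of control. Its adjusted p-value was 0.0158 in DESeq2 and 0.277 in limma, with a limma log2 fold change of -0.49 (SE 0.12). Nsdhl, which works with Msmo1 in removing the methyl groups, was at 817, 842 and 740 in control lines and at 731, 713 and 732 in PWS lines. The groups were apart by 740 in line 16 against 732 in line 19-4, and the log2 fold change was -0.14 (SE 0.08). Hsd17b7, the ketoreductase of the same complex, overlapped between groups (99.7 to 135 against 72.5 to 109).

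Tm7sf2, a sterol 14-reductase, overlapped between groups (454 to 564 against 382 to 473). Reads counted uniquely made up 30.5% of its total, and the log2 fold change was -0.20 with shared reads included, -0.53 with unique reads and -0.34 in the RSEM estimates. With shared reads included it was -0.11 both without control line 2 and without PWS line 19-4. Lss, with 52.7% counted uniquely, moved from -0.19 to -0.43 in RSEM but was -0.21 with unique reads. The sizes for both genes are uncertain. Of the final steps, Ebp, the sterol isomerase, ran from 251 to 342 in control lines and from 248 to 262 in PWS lines (log2 fold change -0.18, SE 0.13). The highest of these was line 16, and the log2 fold change of Ebp was -0.063 without it and -0.29 without line 2. Sc5d, which introduces the C5 double bond, had the smallest difference of the 11, with 1178, 1084 and 1171 in control lines against 1103, 1104 and 1141 in PWS lines, for a log2 fold change of -0.04 (95% interval -0.20 to 0.13, and -0.074 to -0.014 with 1 line left out). Dhcr7, the last enzyme of the route, was at 1937, 1828 and 1885 in control lines and at 1658, 1479 and 1741 in PWS lines. For Dhcr7 the control lines were close together (SD 54.7), line 2 was their lowest, and the log2 fold change was -0.21 (SE 0.08, limma adjusted p-value 0.380).

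Among the regulators, Insig1, itself a target of SREBP2 that retains SCAP, differed most. It was at 3970, 5099 and 3774 in control lines and at 3232, 3260 and 3702 in PWS lines, and 70.4% of its reads were counted uniquely. The groups did not overlap, and the log2 fold change of -0.32 (SE 0.12, limma adjusted p-value 0.373) was -0.19 without line 2. Srebf2, which encodes SREBP2, was at 3346, 4628 and 3356 in control lines and at 3523, 3660 and 3245 in PWS lines. Lines 3 and 19-1 lay among the control lines and line 19-4 below them, and the log2 fold change of -0.10 (95% interval -0.40 to 0.19) was 0.05 without line 2. Scap, the sterol sensor that escorts SREBP2, was at 1741, 1818 and 1620 in control lines and at 1715, 1794 and 1720 in PWS lines (log2 fold change 0.02, 95% interval -0.15 to 0.18). Insig2, an INSIG gene that SREBP2 does not drive, was at 297, 263 and 354 against 306, 306 and 294, with an interval of -0.29 to 0.29. For these 3 genes the direction was not settled, since each changed sign under at least 1 of the alternatives.

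Transport, efflux and storage genes had a median log2 fold change of 0.07, and 5 of the 6 were higher on average in PWS lines. The exception was Stard4, a sterol carrier of the cytosol and a known SREBP2 target, at 2064, 2117 and 1888 in control lines and 1863, 1693 and 1651 in PWS lines. Its groups did not overlap, and the log2 fold change was -0.22 (SE 0.08, limma adjusted p-value 0.364). Abcg1, an efflux transporter raised by LXR, had the highest log2 fold change of the set, 0.13 (95% interval -0.11 to 0.37), with 4137, 5255 and 4328 in control lines and 4933, 5457 and 4613 in PWS lines. Line 2 exceeded lines 3 and 19-4, and the log2 fold change of Abcg1 was 0.24 when line 2 was left out, 0.065 without line 5-9 and 0.069 without line 19-1. Abca1, the other LXR-driven efflux gene, ran from 13890 to 17496 in control lines and from 15351 to 15849 in PWS lines (log2 fold change 0.05, SE 0.10). Npc1 and Npc2, which release cholesterol from lysosomes, overlapped between groups, with log2 fold changes of 0.06 (SE 0.08) and 0.08 (SE 0.12). With 1 line left out these ranged from 0.013 to 0.12 for Npc1 and from -0.026 to 0.15 for Npc2, and that of Abca1 from -0.013 to 0.15. Soat1, which esterifies cholesterol for storage, ran from 1497 to 1780 in control lines and from 1695 to 1765 in PWS lines (log2 fold change 0.10, SE 0.08, or 0.050 without line 2 and 0.18 without line 16).

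**Figure D4:**
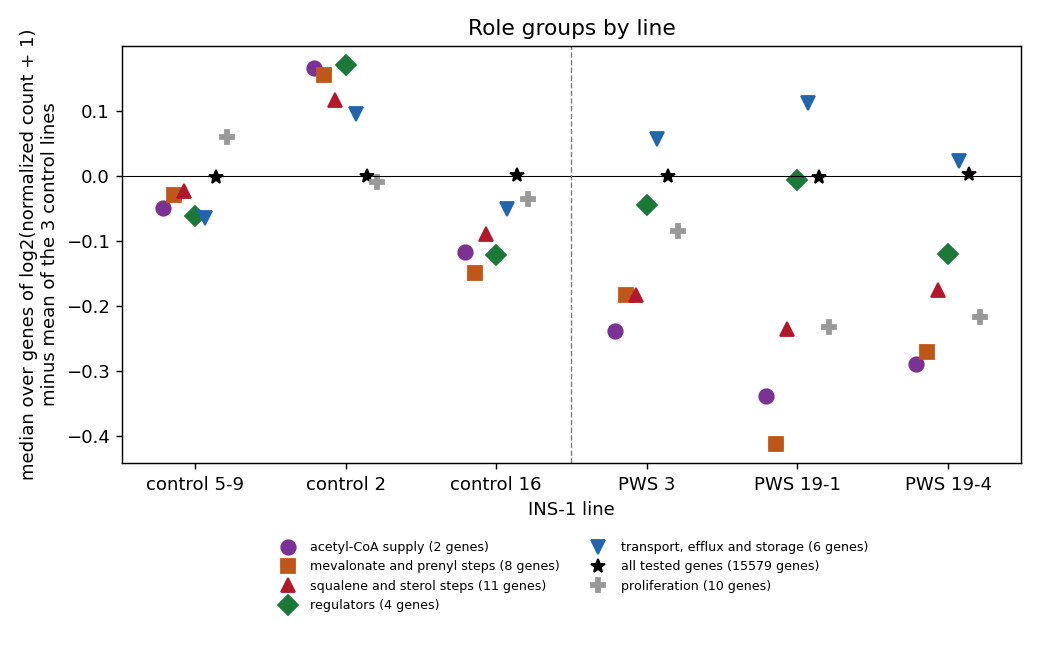
Median log2 difference from the mean of the 3 control lines (y axis) over the genes of each role group, the 10 proliferation genes and all 15579 tested genes, for each of the 6 lines. Line 19-1 is lowest for the mevalonate and prenyl steps (-0.41) and the squalene and sterol steps (-0.24), and line 2 is highest for both (0.16 and 0.12).

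By role, the median log2 fold change was -0.29 for both acetyl-CoA supply (2 genes) and the 8 mevalonate and prenyl genes, -0.20 for the 11 squalene and sterol genes, -0.05 for the 4 regulators and 0.07 for the 6 transport, efflux and storage genes. Of the 11 genes with an unadjusted limma p-value under 0.05, 9 were synthesis enzymes, with Insig1 and Stard4 as the others. Without control line 2 the medians were -0.21, -0.19, -0.18, -0.026 and 0.086 in the same order. The difference between role groups was not tested.

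Genes that share the mevalonate precursors or the SREBP machinery were described from the same fit. In the non-sterol branch, which makes dolichol, ubiquinone and prenylated proteins, 13 of 14 listed genes were tested, and 6 were lower and 7 higher on average. The median log2 fold change was 0.02 (-0.0098 without control line 2), from -0.16 for Zmpste24, a protease that matures prenylated lamin A, to 0.08 for Pggt1b, a subunit of an enzyme that prenylates small GTPases, and 0 passed in limma, edgeR or DESeq2 or had an unadjusted limma p-value under 0.05. Of the 11 genes of SREBP processing and sterol-regulated degradation, 5 were lower and 6 higher on average, and the median was 0.02 (0.0053 without control line 2). The highest log2 fold change of these was that of Mbtps2, the site-2 protease that releases SREBP in the Golgi. Mbtps2 was at 657, 620 and 809 in control lines and at 805, 964 and 1024 in PWS lines, and line 3 overlapped with line 16. Its log2 fold change was 0.42 (SE 0.13, limma adjusted p-value 0.320).

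Fatty acid synthesis is driven mainly by SREBP1. Of its 14 genes, 7 were lower and 7 higher on average, the median log2 fold change was -0.0093 (0.054 without control line 2, which lay above the control mean for 13 of the 14), and 0 passed in limma, edgeR or DESeq2, with 3 lower and 0 higher at an unadjusted limma p-value under 0.05 (5.35% and 6% of tested genes). The extremes were Elovl1, which elongates very long chains (-0.33, SE 0.13), and Acacb, an acetyl-CoA carboxylase with few reads (0.25). Scd and Elovl6 rest almost wholly on shared reads, with 0.697% and 0.0864% of their reads counted uniquely. Of 14 genes of LXR and sterol transport outside the set, 11 were tested, 4 lower and 7 higher on average, with a median of 0.02. At an unadjusted limma p-value under 0.05, 1 was lower and 3 were higher (5.35% and 6% of tested genes). The groups did not overlap for 2 lower and 3 higher genes (9.01% and 8.43% of tested genes). Mylip, the LXR-induced ligase that marks lipoprotein receptors for degradation, was at 761, 1082 and 731 in the control group and at 474, 426 and 445 in PWS lines. The groups of Mylip did not overlap, and its log2 fold change was -0.91 (SE 0.15), with an adjusted p-value of 0.0843 in limma and 8.3e-06 in DESeq2. Soat2, the other cholesterol acyltransferase, was at 9.49, 8.26 and 13.4 in control lines and at 27.6, 22.7 and 17.3 in PWS lines. At these few reads its log2 fold change was 1.05 (SE 0.31, limma adjusted p-value 0.311).

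Dividing cells need membrane sterols, and the proliferation genes were lower on average in PWS lines as well. All 10 of 10 (Mki67, Top2a, Ccnb1, Cdk1, Mcm2, Mcm5, Pcna, Ccna2, Aurkb and Plk1) were lower on average (median log2 fold change -0.17), from -0.26 for Top2a, a topoisomerase of dividing cells, to -0.05 for Aurkb, a mitotic kinase. In 4 of the 10 the groups did not overlap, and 0 passed in limma, edgeR or DESeq2, with 5 lower at an unadjusted limma p-value under 0.05. Over all tested genes 9.01% did not overlap and were lower, and 5.35% were lower at that p-value. The part of proliferation in the values of the cholesterol genes was not tested.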

How the data were processed

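Total RNA, depleted of rRNA, was sequenced from 3 control and 3 PWS INS-1 lines. The authors aligned reads with STAR 2.7.0e to the Ensembl rat genome with transgenes added, counted them per gene with HTSeq 0.11.2 or RSEM 1.3.1, and deposited 3 tables in which each line's signal is a count divided by its DESeq2 size factor. In the main table a read counts for every gene that it aligns to or overlaps (nonunique all). A further HTSeq table leaves out reads that align to several places or overlap several genes (nonunique none). The reads it keeps are called unique or uniquely counted here, and the others shared. Columns of the authors' own comparison in these deposited tables (log2 fold changes with their errors, p-values raw and adjusted) were not used. Each sample's column was found from the group and number in its name.

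The members, gene lists and tests were chosen with earlier results of these data known. PWS and control lines were set against each other in limma 3.58.1 (R 4.3.3), with a trend in eBayes, after log2(normalized count + 1), over 15579 genes whose mean was at least 5, with Benjamini-Hochberg adjustment over all of them and a threshold of 0.05. Divided by what 1 read is worth, 100% of the nonzero HTSeq values came out whole (relative tolerance 1e-06). On these reads edgeR 4.0.16 called 32 genes and DESeq2 1.42.0 called 228, against 40 in limma. On simulated data with 200 changed genes the share recovered was 95% for limma and edgeR and 96% for DESeq2, and false calls numbered 9, 18 and 40. The simulated log2 fold changes were all of size 1 or more, in genes with a mean of at least 50. No gene of the set changed by that much, so these shares do not tell how often changes of its size are found.

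Values in every line are given for genes with an unadjusted p-value under 0.05, an adjusted p-value under 0.05 in any of the 3 tests or groups that do not overlap, for the regulators, and for the extremes of each role group. Of other lists the extremes are named, except 1 that is not reported here, and promoters are shown for those with a sterol element. The other 5 promoters shown were chosen after the values were seen. A log2 fold change understates the change of low genes because of the pseudocount. Alternatives were other pseudocounts, filters, scaling, counting and tests, each line left out, lines 19-1 and 19-4 averaged, a replicate block and, chosen after seeing the data, DESeq2 with lines left out or summed and on unique reads. Same-numbered lines did not pair, with correlations of their deviations between 0.0035 and 0.047.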

Additional observations from a re-analysis of the deposited data

How the results depend on the processing

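Over 18 alternatives, the log2 fold changes of the 31 genes gave 558 values, of which 544 kept their direction and their side of the threshold, 4 passed it in DESeq2 and 10 changed sign. The number of genes of the set past the threshold was 0 in every limma fit and in edgeR, also with each line left out (0 to 0), and 4 in DESeq2. Under DESeq2 that number was 0 with lines 19-1 and 19-4 summed, 4 on unique reads, and 0 to 7 with a line left out. The median of the set ranged from -0.21 to -0.11 with a line left out, the weakest without control line 2. Among all genes, 40 passed in limma, 228 in DESeq2, 16 with nonunique none counting, 12 with RSEM, 9 with a mean of at least 50, and 33 to 55 with a line left out. With the replicate number as a block, although the numbers do not pair the lines, 36 of all genes and 0 of the set passed and the median was -0.18, and no call on the set changed. The sign changes, in genes near 0, were Insig2 at 0.032 in RSEM and 0.0016 with lines 19-1 and 19-4 averaged, and, with a line left out, Insig2 (-0.10 to 0.11), Srebf2 (-0.18 to 0.051), Scap (-0.030 to 0.053), Npc2 (-0.026 to 0.15) and Abca1 (-0.013 to 0.15). The cause of these moves was not tested. Precision is limited by 3 lines in each group and 2 PWS clones.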
